A study of Mus musculus with 6 samples.

Results

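The genes described here are 10 genes of cystine import, glutathione synthesis and antioxidant defense, measured by single-nucleus RNA sequencing (snRNA-seq) in subcutaneous mouse tumors. They were chosen by symbol from the 22623 genes of the count matrices, and all 10 were present in all 6 libraries. The tumors grew from TC1 cells, a mouse lung tumor line, injected into the flank of MCT2 loxP/loxP; Cre+ mice on a C57BL/6 background, and MCT2 is the monocarboxylate transporter encoded by Slc16a7. In the KO group, young male mice 8 weeks old received tamoxifen for 5 days to switch on Cre and delete MCT2, and in the CO group mice of the same genotype received vehicle. TC1 cells were injected 2 days after the last dose and the tumors were collected after 24 days. Each group held 3 libraries, numbered CO1 to CO3 and KO1 to KO3 after the replicate numbers of the labels. The deletion is carried by the host, so it is not a deletion in the injected TC1 cells, and the Cre is systemic. No mice that received tamoxifen without Cre are part of the design, so tamoxifen itself and the loss of MCT2 cannot be told apart. The labels name the tissue as lung, although the tumors were subcutaneous.

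The cystine/glutamate antiporter takes up cystine, the oxidized dimer of cysteine, in exchange for glutamate, and cells reduce it to cysteine for glutathione. Glutathione is the cofactor with which Gpx4 reduces lipid hydroperoxides, whose build-up is the hallmark of ferroptosis, an iron-dependent form of cell death. Transcription factors that induce these genes include Nrf2, encoded by Nfe2l2, which responds to oxidative stress, and Atf4, which responds to a shortage of amino acids.

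The 6 libraries held 18865 barcodes with 13252572 to 22057084 UMIs (unique molecular identifiers, each of which stands for 1 captured RNA molecule) per library, and 17514 nuclei were kept. A total of 61 barcode sequences (0.326%) occurred in 2 or more libraries. Nuclei were classed by marker genes that include none of the 10 genes. The rule put 9717 nuclei (55.5%) in the tumor-like class, 2442 (13.9%) in the macrophage-like class and 196 (1.12%) in the T/NK-like class, and left 5159 (29.5%) unclassed. At the limit, 68 tumor-like, 173 macrophage-like and 6 T/NK-like nuclei held only the 3 marker UMIs required. The rule also set a minimum share of marker UMIs from the class. Within 10 percentage points above that minimum lay 1014 of 9717 tumor-like, 1011 of 2442 macrophage-like and 113 of 196 T/NK-like nuclei. Just outside it lay 407, 693 and 67 nuclei. Many macrophage-like and T/NK-like nuclei were thus close to the share limit. Tumor-like nuclei numbered 888 to 2646 per library, but macrophage-like nuclei numbered 35 in KO2 and 106 in KO3 against 218 to 999 in the others, and T/NK-like nuclei 8 and 18 against 36 to 47. With a looser rule (60% of marker UMIs), macrophage-like nuclei numbered 123 in KO2 and 437 in KO3 against 389 to 1263 in the others. How low KO2 and KO3 lay thus depended on the rule. In KO3, 56.9% of nuclei were unclassed, against 19.5% to 35.0% in the other libraries. The median number of UMIs per nucleus was 5019, 1158 and 967 in the 3 classes. In each class, check markers that the rule did not use (8 per class, among them Etv4 and Pde10a for the tumor, Lyz2 and C1qc for macrophages, and Lck and Cd2 for T and NK cells) had their highest summed level in their own class in every library. Of the macrophage check markers, Itgam had 0 UMIs in every class. The median level of Cd14 was only slightly higher in macrophage-like than in tumor-like nuclei. Tumor check markers still reached 10.0% to 26.8% of their tumor-like level in macrophage-like nuclei and 12.3% to 38.0% in T/NK-like nuclei, while macrophage check markers reached 1.71% to 7.02% of their own level in tumor-like nuclei. Levels below are CPM (the count scaled to a fixed total of UMIs) in the UMIs summed over the nuclei of a class in 1 library, and they are compared between classes and libraries, not between genes. Slc16a7 itself, the deleted gene, ranged over all nuclei from 8.58 to 21.0 CPM for CO and from 6.92 to 31.5 CPM for KO, so its level overlapped between the groups and did not check the labels. In macrophage-like nuclei, where its level was highest, it stood at 99.1, 84.7 and 226 CPM for CO and 123, 150 and 122 CPM for KO, again with overlap. In tumor-like nuclei it stood at 1.18 to 2.12 CPM for CO and at 2.34 to 4.94 CPM for KO, from 14 to 43 UMIs per library. All KO values lay above all CO values there, as for 5.22% of the 13178 genes tested in this class. The part of macrophage RNA outside its own nuclei in this low level was not tested. The 3′ counting also reads transcripts of a deleted allele if its last exon remains, and which exons the loxP sites flank is not given in the sources used here.

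Slc7a11 encodes xCT, the light chain that carries cystine through the antiporter. It lies on GRCm38 chromosome 3 from 49892526 to 50443614 on the minus strand and spans 551.1 kb with 13 merged exons. Of its 16018 UMIs over all kept nuclei, 95.2% came from tumor-like nuclei, which gave 87.4% of the UMIs of all genes. Over the other 9 genes this share lay between 80.3% (Hmox1) and 90.4% (Nqo1).

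The promoter of Slc7a11 is shown because the gene had the largest difference of the 10 between tumor-like and macrophage-like nuclei, with that of Gclm, another target of stress-induced transcription, beside it. RefSeq windows of 250 bases before the transcript start (GRCm38.p6) were on hand for 8 of the 10 genes, with 13 starts in all. Capitals in the Slc7a11 window mark matches to TGATGNAA, the core letters of the element bound by Atf4 with C/EBP partners, and capitals in the Gclm window mark a match to TGACNNNGC, the core letters of the antioxidant response element bound by Nrf2. The windows are chr3:50443614-50443863 on the minus strand and chr3:122245307-122245556 on the plus strand, each read 5′ to 3′ along its gene.
Slc7a11: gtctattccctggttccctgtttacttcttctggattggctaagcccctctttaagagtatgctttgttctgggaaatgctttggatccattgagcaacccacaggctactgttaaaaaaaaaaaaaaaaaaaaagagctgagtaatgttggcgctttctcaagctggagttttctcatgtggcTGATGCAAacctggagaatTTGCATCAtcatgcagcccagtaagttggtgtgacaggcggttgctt
Gclm: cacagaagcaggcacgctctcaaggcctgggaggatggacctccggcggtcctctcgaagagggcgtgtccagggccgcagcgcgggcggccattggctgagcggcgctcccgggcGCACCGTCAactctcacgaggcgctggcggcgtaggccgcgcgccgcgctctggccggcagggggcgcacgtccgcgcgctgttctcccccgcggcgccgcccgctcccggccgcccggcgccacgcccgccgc

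On both strands, the Slc7a11 window held 2 matches to TGATGNAA, from -66 to -59 and from -47 to -40 relative to the start. Of 32851 promoter windows of the same length, 3.45% held at least 1 such match and 13 (0.0396%) held 2 or more. TGACNNNGC matched in the windows of Gclm (from -134 to -126), Nfe2l2 (from -240 to -232) and 1 start of Txnrd1 (from -92 to -84), and in 10.2% of all windows. No match of TGATGNAA was found in the windows of the other 7 genes. These matches describe letters only and do not show binding.

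Levels of Slc7a11 were highest in tumor-like nuclei in each of the 6 libraries. They were 166, 170 and 81.0 CPM in CO1 to CO3 and 280, 253 and 313 CPM in KO1 to KO3 in this class. Macrophage-like nuclei had 31.4, 26.5 and 3.06 CPM in CO1 to CO3 and 125, 30.0 and 115 CPM in KO1 to KO3, counted from 19, 21, 1, 155, 2 and 19 UMIs. T/NK-like nuclei held 5 Slc7a11 UMIs in total and at most 2 in any library, so their level is known only within wide counting error.

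**Figure D1:**
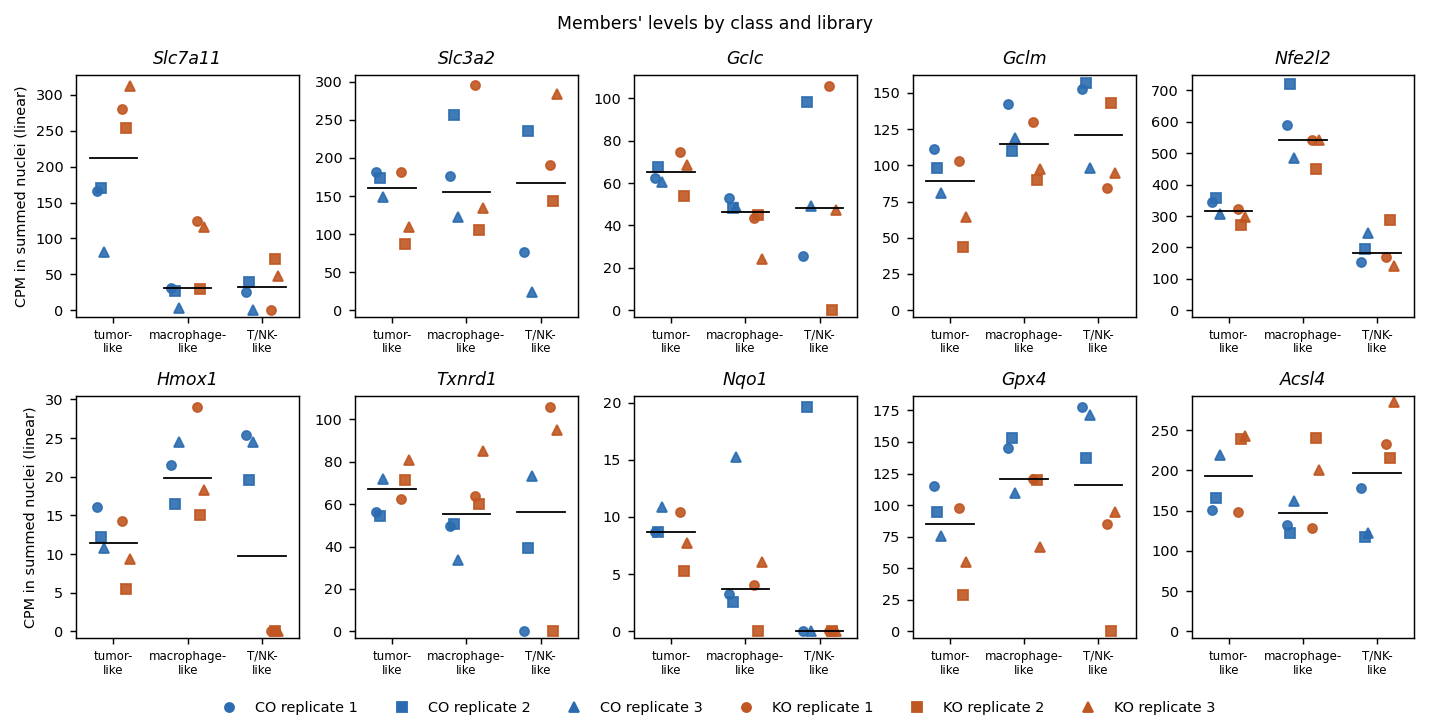
Level of each of the 10 genes (CPM, linear axis, 1 panel per gene) in the summed tumor-like, macrophage-like and T/NK-like nuclei, with 1 point per library, the groups told apart by color and the replicates by marker shape. Slc7a11 lies between 81.0 and 313 CPM in tumor-like nuclei and between 3.06 and 125 CPM in macrophage-like nuclei, whereas Nfe2l2 is higher in macrophage-like than in tumor-like nuclei in every library.

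Tumor-like and macrophage-like nuclei of the same libraries were compared with edgeR's quasi-likelihood test and Benjamini-Hochberg adjustment, with the library as a block. A gene was called at an absolute log2 fold change of at least 0.58 and an adjusted p of at most 0.05. This contrast separated most of the transcriptome: 4504 of 8599 genes tested (52.4%) were called, 28.5% higher and 23.9% lower in tumor-like nuclei. Hmox1 and Nqo1 had too few counts for the filter. Of the 8 genes tested, 2 were higher, 1 was lower and 5 were not called, and their median log2 difference was 0.01 against 0.07 over all genes tested. A share of 3 in 8 is therefore not above the background. Slc7a11 was higher in tumor-like nuclei by 2.00 on the log2 scale (SE 0.19, adjusted p = 3.4e-15, edgeR), a fold of 4.01 seen in the same direction in 6 of 6 libraries. Gclc, the catalytic subunit of the enzyme that starts glutathione synthesis, was higher by 0.62 (SE 0.17, adjusted p = 0.0014, edgeR), but its call was lost in 8 of 15 alternatives. Nfe2l2 was lower in tumor-like nuclei by a log2 difference of -0.72 (SE 0.13, adjusted p = 1.7e-06, edgeR).

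The levels behind these calls differ in shape. Nfe2l2 had 344, 358, 307, 323, 270 and 297 CPM in the tumor-like nuclei of CO1 to KO3 and 591, 722, 486, 544, 450 and 541 CPM in the macrophage-like nuclei. All 6 macrophage-like values thus lay above all 6 tumor-like values, with no overlap. Gclc ranged from 53.7 to 74.7 CPM in tumor-like nuclei and from 24.3 to 52.9 CPM in macrophage-like nuclei. These groups did not overlap either, but the highest macrophage-like value and the lowest tumor-like value were close. The share of all genes without overlap between these classes was not counted. With 52.4% of genes called in this contrast, such a lack of overlap may be common.

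The other partners of these proteins were closer between the classes. Slc3a2, the heavy chain that anchors xCT and several other amino acid transporters in the membrane, had a log2 difference of -0.24 (SE 0.15) and ranged from 86.6 to 182 CPM in tumor-like and from 105 to 296 CPM in macrophage-like nuclei. Gclm, the modifier subunit of glutamate-cysteine ligase, had a log2 difference of -0.34 (SE 0.14, adjusted p = 0.024, edgeR), below the fold required. Gpx4 (-0.46, SE 0.14) and Acsl4 (0.37, SE 0.13), which activates polyunsaturated fatty acids for membrane lipids, also passed on p but not on size. Txnrd1, cytosolic thioredoxin reductase, had a log2 difference of 0.26 (SE 0.17). Txnrd1 overlaps Eid3 on the same strand, so reads of the 2 genes may not have been separated.

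**Figure D2:**
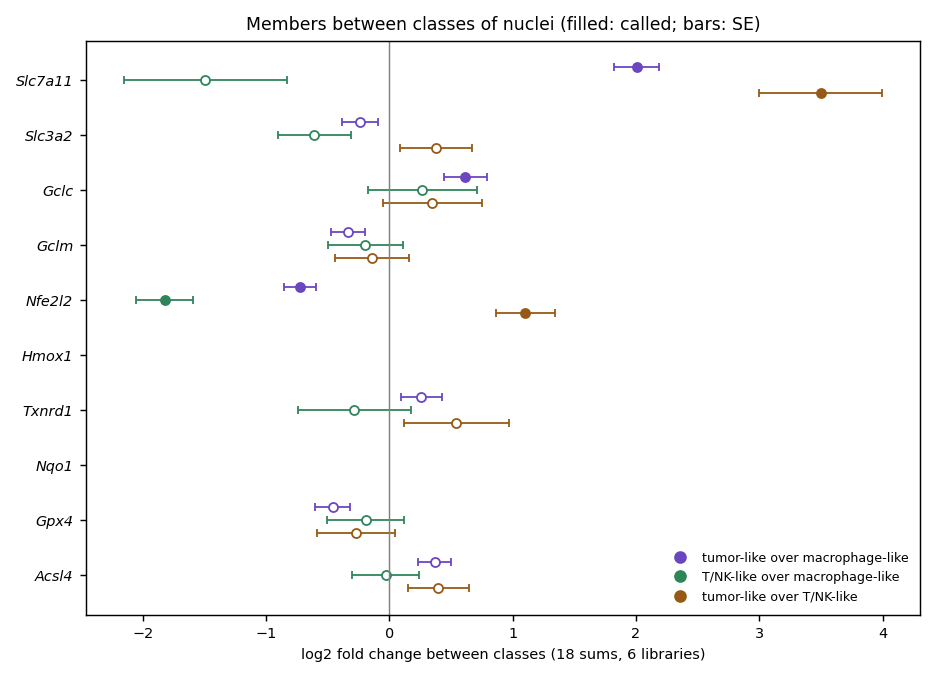
Log2 fold changes of the genes between classes (x axis) from the edgeR fit over 18 library-by-class sums, with bars of 1 SE and filled points for called genes. Slc7a11 lies to the right of 0 in both contrasts that involve tumor-like nuclei (2.00 and 3.50), and Nfe2l2 is called in all 3 contrasts.

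T/NK-like nuclei carried few UMIs of any of the genes, from 1 (Nqo1) to 41 (Nfe2l2) over the 6 libraries. Against macrophage-like nuclei, 1821 of 8599 genes (21.2%) were called, 6.15% higher and 15% lower in T/NK-like nuclei, and Nfe2l2 was the 1 gene of 8 tested that was called, with a log2 difference of -1.82 (SE 0.23, adjusted p = 1.9e-09, edgeR). Slc7a11 had a log2 difference of -1.49 (SE 0.66, adjusted p = 0.11, edgeR) in this contrast and was not called. Tumor-like against T/NK-like nuclei gave 2921 called genes (34%), 22.6% higher and 11.4% lower. Here Slc7a11 (3.50, SE 0.50, adjusted p = 2.9e-08, edgeR) and Nfe2l2 (1.10, SE 0.24, adjusted p = 0.00014, edgeR) were higher in tumor-like nuclei, and the other 6 genes tested were not called. Nfe2l2 was therefore ordered macrophage-like, tumor-like, T/NK-like with each step called, although the step from macrophage-like to tumor-like nuclei lost its call in 1 of 15 alternatives (-0.43 at 100% of marker UMIs). In KO2 the T/NK-like level of Nfe2l2 (287 CPM, from 4 UMIs) was above the tumor-like level (270 CPM). For Slc7a11 only the steps from tumor-like nuclei down were called, and the difference between macrophage-like and T/NK-like nuclei was called in 1 of 15 alternatives, with no filter on low counts. The 5 Slc7a11 UMIs of the T/NK-like nuclei gave a pooled level of 23.4 CPM, and the ratio of the macrophage-like to the T/NK-like pooled level was 2.90 (exact counting interval 1.22 to 9.02). KO1 gave 155 of the 217 macrophage-like UMIs, and without it the ratio was 1.05 (0.428 to 3.36), while without CO2 it was 4.42 (1.49 to 21.6).

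The share of nuclei with at least 1 Slc7a11 UMI was set at equal depth by drawing 1000 UMIs from each nucleus and leaving shallower nuclei out (749 tumor-like, 830 macrophage-like and 104 T/NK-like). In tumor-like nuclei the share was 10.9%, 13.8% and 7.19% in CO1 to CO3 and 21.5%, 17.5% and 21.5% in KO1 to KO3, and before this thinning it ranged from 23.0% to 52.6%. In macrophage-like nuclei it was 1.75%, 2.18% and 0% (0 of 140 nuclei, exact 95% upper bound 2.6%) in CO1 to CO3 and 9.84%, 3.85% and 9.09% in KO1 to KO3. The KO2 value rests on 1 of 26 nuclei (exact interval 0.0973% to 19.6%), and the intervals cover counting error only. In T/NK-like nuclei, 1 of 58 CO nuclei (1.72%) and 2 of 34 KO nuclei (5.88%) held a Slc7a11 UMI. Over the 3 CO libraries the macrophage-like share was 14 of 838 nuclei (1.67%), and over the 3 KO libraries it was 74 of 774 (9.56%). KO1 alone gave 671 of these 774 nuclei and 66 of the 74 with a UMI. The pooled KO share is thus largely that of 1 library, and nuclei are not replicates of a group. The T/NK-like nuclei are too few to set a background for either share. The T/NK-like nuclei are shallow as well (median 967 UMIs, against 1158 in macrophage-like nuclei). At this depth most tumor-like nuclei held none, so nuclei without a Slc7a11 UMI are not nuclei without the transcript.

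The counts of Slc7a11 were also more uneven from nucleus to nucleus than those of the other genes. The variance over the mean of UMIs per tumor-like nucleus, at 1000 UMIs each, was 1.24 to 1.53 over the 6 libraries for Slc7a11 (median 1.39), and a single draw held at most 6 of its UMIs. For the other 9 genes the medians were between 0.99 and 1.09, close to the value of 1 that counting alone gives. To see which genes went with Slc7a11 within a library, each tumor-like nucleus was weighted by the chance that 1000 of its UMIs include a Slc7a11 UMI, and all other genes were compared between the weighted sums. Of 10628 genes, 7.85% were higher and 8.3% lower with Slc7a11 in all 6 libraries, and 1 of the 9 genes was, Acsl4, by log2 ratios of 0.03 to 0.17. Acsl4 did so in 0 of 10 single draws of the same split, and the median ratios of the other 8 genes lay between -0.13 and 0.11. Among 60 other genes of the pathway, Slc7a5, the light chain of the LAT1 leucine transporter, and Cul3 were higher in all 6 libraries (median log2 ratios of 0.42 and 0.08), and 8 were lower, among them the peroxiredoxin gene Prdx1 (-0.23). Single draws differed, and Slc7a5, Cul3 and Prdx1 kept these signs in all 6 libraries in 5, 2 and 7 of 10. Of 76 ribosomal protein genes, 44 were lower in all 6 libraries with Slc7a11, as were 10 of 13 mitochondrial genes. Nuclei with Slc7a11 were also the deeper ones in each library (mean of 8111 against 7152 UMIs in CO1, for example), and the part of depth and RNA quality in this split was not tested.

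Over the 18 library-by-class sums, the genes whose log2 CPM followed Slc7a11 most closely were Pard3b (Pearson r = 0.91), Cntrob (0.91), Fam20b (0.87), Nhlrc2 (0.86) and Gemin8 (0.85) of 8599 genes, as a description over sums that share libraries and classes. Of the other genes of the group, Slc3a2 (0.45), Acsl4 (0.32) and Nfe2l2 (0.31) followed it most, and Gclc (0.01), Gclm (-0.04) and Gpx4 (-0.12) did not follow it.

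In tumor-like nuclei, Slc7a11 stood at 139 ± 50.2 CPM for CO and 282 ± 29.8 CPM for KO (mean ± SD, n = 3 libraries each). All 3 KO values lay above all 3 CO values, the lowest KO value being 253 and the highest CO value 170 CPM, and Slc7a11 was the 1 gene of the 10 with this order. Among all 13178 genes tested, 5.22% had all KO values above all CO values and 7.64% had all below, and none of the 10 had all below. The log2 fold change was 1.08 (SE 0.30), and with an adjusted p of 0.591 by edgeR it was not called. Over 16 alternatives it ranged from 0.43 to 1.25 and was not called in any. The lowest value came at 100% of marker UMIs, which left 169 to 409 tumor-like nuclei per library. None of the 13178 genes (0%) was called in this contrast. At an unadjusted p under 0.05 there were 848 genes, and DESeq2 called 30, of which none was among the 10.

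The other 9 genes had log2 fold changes from -0.61 (Gpx4) to 0.31 (Txnrd1 and Acsl4), with adjusted p from 0.591 to 0.744 by edgeR, and none was called. The median over the 10 was -0.16, against -0.02 over all genes tested. Gpx4 had 115, 94.4 and 75.6 CPM in CO1 to CO3 and 97.6, 28.9 and 54.9 CPM in KO1 to KO3. Gclm had 111, 98.2 and 80.6 CPM against 103, 43.8 and 64.5 CPM. For both genes KO1 lay inside the CO range and KO2 and KO3 lay below it. For Slc3a2, with 181, 173 and 148 CPM in CO and 182, 86.6 and 109 CPM in KO, KO1 lay just above the CO range and KO2 and KO3 lay below it. Acsl4 had the opposite layout, with 151, 166 and 220 CPM in CO and 148, 239 and 242 CPM in KO, in which KO1 was the lowest of the 6 libraries. Nfe2l2 ranged from 270 to 358 CPM, Gclc from 53.7 to 74.7 CPM, Txnrd1 from 54.6 to 80.7 CPM, Hmox1, the inducible heme oxygenase, from 5.45 to 16 CPM and Nqo1, a quinone reductase and classical Nrf2 target, from 5.31 to 10.9 CPM over the 6 libraries, with CO and KO overlapping for each.

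KO1 thus stood apart from KO2 and KO3 for several of the genes. Without KO1, the same edgeR test called 2433 of 13285 genes (18.3%), 768 higher and 1665 lower in KO. Of the 10 genes, Slc3a2 (-0.69, adjusted p = 0.0377), Gclm (-0.76, adjusted p = 0.0478) and Gpx4 (-1.12, adjusted p = 0.0434, edgeR) were then called lower in KO, and Slc7a11 (1.10, adjusted p = 0.0525, edgeR) was not called. Leaving out any other single library called 0 genes. For Slc3a2, Gclm and Gpx4 the step removed the KO library that did not lie below the CO range. These adjusted p-values thus describe KO2 and KO3 and are not a separate test. The summed level of the ribosomal protein genes in tumor-like nuclei was 15093, 12442 and 8564 CPM in CO1 to CO3 and 14342, 3156 and 5899 CPM in KO1 to KO3, and mitochondrial UMIs were 9.93%, 9.23%, 6.13%, 9.77%, 5.66% and 5.74%. Gclm, Gpx4 and Hmox1 had exactly the order of the libraries that the ribosomal sum had. Of 12275 genes with at least 100 UMIs, 5.55% had this order and 2.65% the opposite one, which none of the 10 had. The part of RNA quality, or of the extra washes that an unstated subset of samples received, in these differences was not tested.

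**Figure D3:**
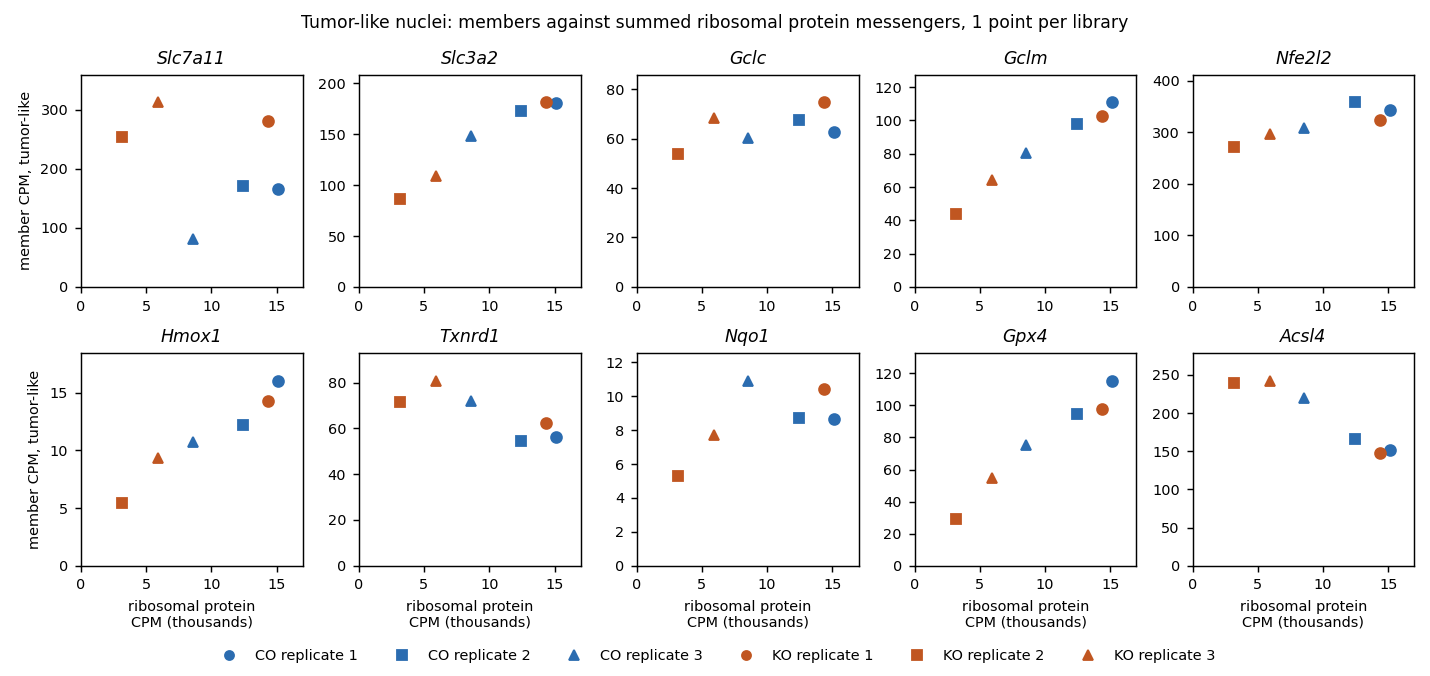
Level of each of the 10 genes in tumor-like nuclei (CPM, y axis from 0) against the summed level of ribosomal protein genes in the same nuclei (CPM in units of 1000, x axis), with 1 point per library. Gclm, Gpx4 and Hmox1 rise in the order of the ribosomal sum from KO2 to CO1, while the 3 KO points of Slc7a11 (253 to 313 CPM) lie above the 3 CO points at both ends of the axis.

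Summed over all nuclei, Slc7a11 stood at 154, 153 and 73.5 CPM in CO and at 257, 245 and 267 CPM in KO. Its log2 fold change there was 1.07 (SE 0.30, adjusted p = 0.672, edgeR). None of the 13662 genes (0%) was called over all nuclei, where DESeq2 called 12 and the unadjusted p was under 0.05 for 661 genes. In such sums, fewer cells of a type and less RNA per cell cannot be told apart. The other 9 genes had log2 fold changes between -0.58 (Gpx4) and 0.34 (Acsl4) over all nuclei.

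In macrophage-like nuclei the KO against CO values of the 10 genes are given as a description, because earlier calls in this contrast were known when the genes were chosen. Slc7a11 had a log2 fold change of 2.22 (SE 0.49), the largest of the 9 genes that passed the filter, and ranged from 1.79 to 2.54 over 15 alternatives. KO2 (30.0 CPM, from 2 UMIs) lay just below CO1 (31.4 CPM), so the groups overlapped. The other genes lay between -0.38 (Gpx4) and 0.59 (Txnrd1). Txnrd1 had 49.5, 50.5 and 33.6 CPM in CO and 63.7, 60 and 85.1 CPM in KO, with no overlap, as had 4.63% of the 7555 genes tested. Gclc had 52.9, 48.0 and 48.9 CPM in CO and 43.5, 45.0 and 24.3 CPM in KO, all below CO, as had 5.76% of genes. The KO2 and KO3 values of Gclc rest on 3 and 4 UMIs. By edgeR, 1 gene (0.0132%) was called over this whole class.

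Slc7a11 is abundant in the tumor-like nuclei of the same libraries, so its macrophage-like level was set beside that of the 8 tumor check markers. Taken as a percentage of the tumor-like level in the same library, Slc7a11 in macrophage-like nuclei stood at 18.9%, 15.6% and 3.77% in CO and 44.6%, 11.9% and 36.9% in KO. The summed tumor check markers stood at 13.5%, 10.0% and 16.2% in CO and 17.6%, 13.2% and 26.8% in KO. Slc7a11 was thus above the marker share in CO1, CO2, KO1 and KO3 and below it in CO3 and KO2. Subtracting that share from the macrophage-like level left between -10.1 and 9.50 CPM for CO and between -3.54 and 75.8 CPM for KO, with the largest remainders in KO1 (75.8 CPM) and KO3 (31.7 CPM). The single check markers themselves ranged widely, from 1.93% for Pde10a to 65.5% for Pthlh as medians over libraries, and Slc7a11 (14.5%) fell among them. The other genes except Nqo1 were above the marker share in 6 of 6 libraries. The part of tumor RNA outside its own nuclei in the macrophage-like level of Slc7a11 was not tested further.

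**Figure D4:**
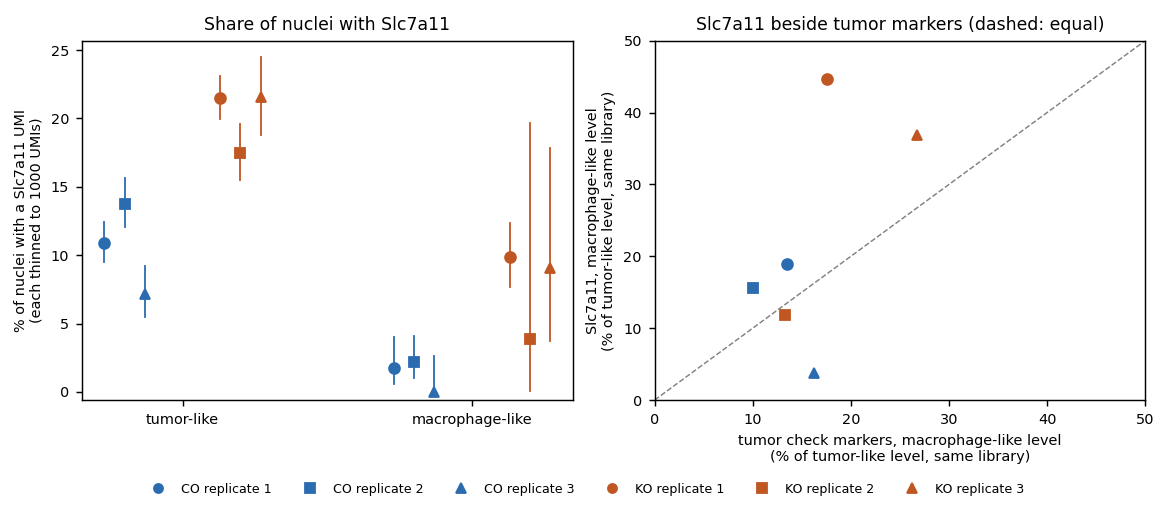
Left, percentage of tumor-like and macrophage-like nuclei with a Slc7a11 UMI after thinning to 1000 UMIs per nucleus, with 1 point per library and bars of exact 95% binomial intervals. Right, macrophage-like level of Slc7a11 against that of the summed tumor check markers, both in % of the tumor-like level of the same library, with equality dashed: KO1 (44.6 against 17.6) and KO3 (36.9 against 26.8) lie above the line and CO3 (3.77 against 16.2) lies below it.

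Whether the KO against CO difference itself differed between tumor-like and macrophage-like nuclei was tested as an interaction, in which 40 of 12437 genes (0.322%) were called. For Slc7a11 the interaction was -1.28 (SE 0.34), meaning a larger KO against CO difference in macrophage-like nuclei, and it is given without a p for the reason above. The other 9 genes had interactions between -0.40 (Hmox1) and 0.52 (Gclc), given as a description for the same reason. No KO against CO test was made in T/NK-like nuclei, since 2 KO libraries held fewer than the 20 nuclei required.

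**Figure D5:**
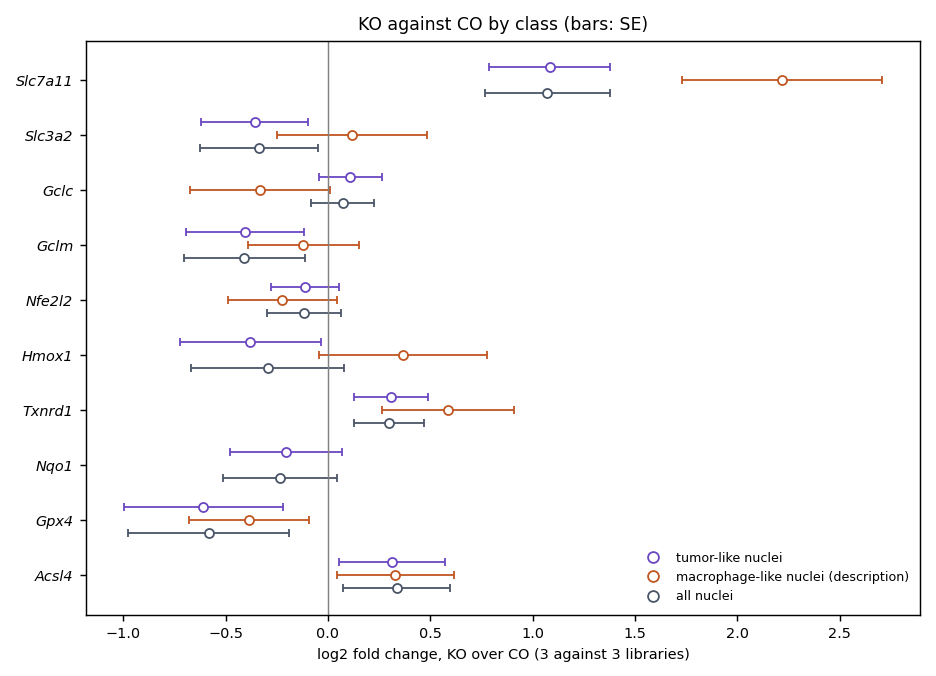
Log2 fold changes of the 10 genes in KO against CO (x axis) in tumor-like, macrophage-like and all nuclei, with bars of 1 SE. No gene was called in tumor-like or all nuclei, the macrophage-like values are a description with no test, and the Slc7a11 values of 1.08, 2.22 and 1.07 are the largest in each.

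A list of 77 other genes of the same pathways put these values in context. Between tumor-like and macrophage-like nuclei, 49 were tested, of which 7 were higher (14.3%, beside 28.5% of all genes tested) and 21 lower (42.9%, beside 23.9%) in tumor-like nuclei, with a median log2 difference of -0.41 against 0.07 over all genes. The largest differences were those of 2 further light chains that pair with Slc3a2, Slc7a8 (-5.73, SE 0.18) and Slc7a7 (-5.32, SE 0.17), both lower in tumor-like nuclei, where Slc7a11 was higher. Me1, malic enzyme, a source of NADPH, was higher by 2.49 (SE 0.24) and Gss, glutathione synthetase, by 1.76 (SE 0.24). Bach1, a repressor of antioxidant response elements that is regulated by heme, had a log2 difference of -2.26 (SE 0.15), and Acsl5, a long-chain acyl-CoA synthetase, one of -1.99 (SE 0.20), and all 6 were called in every alternative in which they could be tested. Of the heme and iron genes 6 of 7 were lower in tumor-like nuclei and none higher, and of the NADPH genes 4 of 6 were lower and 1, Me1, was higher. Of the amino acid stress genes 2 of 3 were higher. These counts stand beside the same 28.5% higher and 23.9% lower of all genes, and no test was run on the lists.

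Against macrophage-like nuclei, 1 of the 49 pathway genes (2.04%) was called higher and 8 (16.3%) were called lower in T/NK-like nuclei, beside 6.15% and 15% of all genes tested, so the share lower was near the background. Slc7a8 had 743 UMIs in macrophage-like and 0 in T/NK-like nuclei, a level at least 16.5-fold lower, with 3 counts over the group as the floor. For Mafg, a small Maf partner of Nrf2, with 1 UMI in T/NK-like nuclei, the ratio of the macrophage-like to the T/NK-like pooled level was 21.2 (counting interval 3.79 to 842), and for Slc7a7 and Bach1, with 2 UMIs each, it was 19.7 (5.43 to 163) and 13.3 (3.66 to 110). The T/NK-like UMIs of these 3 genes came from few libraries: the Mafg ratio was at least 5.1 without KO1, that of Bach1 at least 7.26 without CO1, and that of Slc7a7 31.8 without CO3 and 34.4 without KO3. Acsl1 and Acsl3 were also called lower, with 4 and 2 UMIs in T/NK-like nuclei, and Acsl3 lost the call in 8 of 14 alternatives. Tumor-like against T/NK-like nuclei gave 8 called higher (16.3%) and 3 called lower (6.12%), both below the 22.6% and 11.4% of all genes tested. Among them were Mafg, with a pooled ratio of 20.7 (3.71 to 816), Sesn2, a stress-induced sestrin, with 7.72 (2.64 to 37.4), Me1 with 4.06 (1.39 to 19.7), Acsl3 with 3.97 (1.10 to 32.8) and Gsr, glutathione reductase, with a log2 difference of 1.68 (SE 0.42), all higher in tumor-like nuclei. Without KO1 the Mafg ratio was at least 5.46, and without CO2 the Sesn2 ratio was 16.8. The Acsl3 ratio was 6.58 without KO1 and 7.05 without KO3, and its call was lost in 5 of 14 alternatives. Acsl5 was lower by a log2 difference of -1.63 (SE 0.55), a call lost in 4 of 15 alternatives.

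In KO against CO, none of the pathway genes tested was called in tumor-like (71 tested), macrophage-like (47) or all nuclei (74). Their median log2 fold changes were -0.14, -0.07 and -0.13. In tumor-like nuclei the lowest median by role was that of the 12 thioredoxin genes, -0.50. Of 68 pathway genes with at least 100 UMIs there, 8 had the library order of the ribosomal sum and 0 the opposite one. Without KO1, 12 of 71 (16.9%) were called lower and none higher in tumor-like nuclei, when 12.5% of all 13285 genes were called lower. In the interaction 1 of 69 was called, Acsl1, a long-chain acyl-CoA synthetase, with 1.2 (SE 0.29, adjusted p = 0.0189, edgeR).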

How the data were processed

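snRNA-seq libraries of 6 tumors (3 CO and 3 KO, groups and replicate numbers from the sample titles) were built with 10x 3′ v3.1 chemistry. The authors deposited raw UMI counts per gene and barcode, made with Cell Ranger on GRCm38 (version 3.0.2 in the submitters' processing notes, 3.1.0 in the file headers). The counts are whole numbers, so no correction for free RNA, a step named in the methods, can be seen in them. The 10 genes, the lists and the marker rule were chosen with earlier results of these data known.

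Every barcode had at least 500 UMIs. Nuclei with 100 to 7500 genes and under 20% mitochondrial counts were kept (18014 nuclei). Scrublet (scanpy 1.11.5) marked 11 doublets (0.0611%) by its own threshold, too few to have worked, so the 500 highest-scoring nuclei were removed at 0.8% per 1000 barcodes of each library. A nucleus was classed with at least 3 UMIs from 2 markers of a class that made up 80% of its UMIs of all marker lists (10 tumor, 13 macrophage and 11 T/NK markers and 7 lists of other types). Counts were summed per library and class and tested with edgeR 4.0.16 (quasi-likelihood, TMM, filterByExpr, R 4.3.3) and, as an alternative, DESeq2 1.42.0. The log2 CPM used for correlations had a prior count of 2. The KO against CO fit in T/NK-like nuclei needed 20 nuclei per library, and the other fits did not have this limit. The contrasts between classes thus include T/NK-like sums of 8 nuclei in KO2 and 18 in KO3. At 100% of marker UMIs the macrophage-like KO against CO fit used 6 nuclei in KO2 and 12 in KO3. The KO against CO fit in tumor-like nuclei and the contrast of tumor-like with macrophage-like nuclei were run on simulated counts. These had the same spread in every library and no library that stood apart as KO1 did, so they do not check that case. Replicates within a group differed by a chi-square per degree of freedom of 8.75 to 202. The study calls the 3 libraries of a group biological replicates, and p-values measure the spread between them. Named genes were all 10, up to 6 called pathway genes per contrast by size, the 5 genes most correlated with Slc7a11, and Slc16a7. The weighted split by Slc7a11 was added after the data were seen. It needed 60 weighted UMIs with Slc7a11 per gene, and its ratios use CPM + 1. Promoters came from RefSeq (GRCm38.p6) and gene models from GENCODE vM21. Alternatives were other normalizations, filters, marker rules, doublet and quality limits, each library left out, and a replicate block.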

Additional observations from a re-analysis of the deposited data

Results flagged for a closer look

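The KO against CO difference of Acsl1 differed between tumor-like and macrophage-like nuclei by the test of the interaction. Slc7a11 also had a large interaction, given here as a description with no test, because calls in the macrophage-like contrast were known when the genes were chosen. It was -1.28 (SE 0.34) on the log2 scale, with KO against CO log2 fold changes of 1.08 in tumor-like and 2.22 in macrophage-like nuclei. It ranged from -1.90 to -0.68 over 16 alternatives. The macrophage-like UMIs behind it numbered 19, 21 and 1 in CO and 155, 2 and 19 in KO, and Slc7a11 in tumor-like nuclei of the same libraries was much more abundant. The Acsl1 interaction was 1.2 (SE 0.29, adjusted p = 0.0189, edgeR), called in 6 of 16 alternatives, over which it ranged from 0.28 to 1.44.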

How the results depend on the processing

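The count of called genes in the KO against CO contrasts depended on the processing. In tumor-like nuclei it was 0, became 30 with DESeq2 and ranged from 0 to 2433 when each replicate was left out, where 2433 came without KO replicate 1. In macrophage-like nuclei it was 1, and became 4 with DESeq2, 2 with RLE size factors, 39 with no filter on low counts, 2 with at least 5 marker UMIs, 0 at 60% and 17 at 100% of marker UMIs, 0 with scaled marker counts (chosen after seeing the data), 2 with no doublet removal, 2 with at least 500 genes and under 5% mitochondrial, and 0 to 322 when each replicate was left out, with 322 without KO replicate 1. Over all nuclei it was 0 and became 12 with DESeq2. For the interaction the count was 40, and became 1 with DESeq2, 1 at 60%, 1 with scaled marker counts, 5 with at least 500 genes and 10 to 87 when each replicate was left out, with 10 without CO replicate 2, 16 without CO replicate 1 and 87 without KO replicate 1. Between classes, tumor-like against macrophage-like nuclei gave 6942 with no filter, and the contrasts of T/NK-like with macrophage-like and with tumor-like nuclei gave 907 and 1604 at 100% of marker UMIs. The mean share of tumor-like nuclei with a Slc7a11 UMI over libraries was 41.3% with no thinning and 8.35% when thinned to 500 UMIs.

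With the replicate number as a block, 0 genes were called in tumor-like nuclei, 4 in macrophage-like nuclei, 0 over all nuclei and 22 in the interaction. The deviations of same-numbered libraries in tumor-like nuclei correlated at 0.51, -0.21 and 0.38. They are taken from group means of 3 libraries, so they cannot show whether same-numbered samples shared a step. The labels give these samples a shared number and no other link. KO against CO in T/NK-like nuclei was fitted only at 60% of marker UMIs and with scaled marker counts, and 0 genes were called in each (70 and 40 genes at an unadjusted p under 0.05).

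For single genes, 751 of 789 alternative values of the 10 genes were rated the same. For values with a test, this meant the same direction and side of the threshold. For values given as a description, it meant a shift smaller than the SD between libraries, and the direction was not checked. Slc3a2 in macrophage-like nuclei, for example, ranged from -0.60 to 0.40 over the alternatives, around 0.12. Nqo1 turned in KO against CO to 0.30 in tumor-like and 0.20 in all nuclei with at least 500 genes. Gclm turned to 0.0276 between tumor-like and macrophage-like nuclei at 100%. Between T/NK-like and macrophage-like nuclei, Gclc turned to -0.0417 at 60% and -0.19 with scaled counts and ranged from -0.0476 (without KO replicate 1) to 0.521 when each replicate was left out, Txnrd1 turned to 0.11 and 0.0502 at 60% and with scaled counts, and Acsl4 turned to 0.12 with DESeq2 and with RLE and 0.00814 at 100%, and ranged from -0.201 to 0.057 when each replicate was left out. Between tumor-like and T/NK-like nuclei, Gclc turned to -0.55 and Gpx4 to 0.46 at 100%, and Gclm to 0.0183 with no filter, 0.44 at 100% and 0.11 with scaled counts. None of these was called in the report, and the cause was not tested.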

Other observations

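The unclassed nuclei, which enter no comparison between classes, held 542 Slc7a11 UMIs and levels of 45.3 to 116 CPM over the 6 libraries, and their Nfe2l2 level was 390 to 553 CPM.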
